A study of Mus musculus with 2 samples.

Results

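CtBP2 occupancy was examined at 5 genes that encode developmental transcription factors of the pancreatic islet: Nkx2-2, Nkx6-1, Pax6, Isl1 and Foxa2. Each gene was covered by a fixed window of 60 to 80 kb on mouse build mm9, 330 kb in all, given by position. Within them lay 24 of the 27010 regions of the genome in which anti-CtBP2 ChIP reads were enriched. The windows ran from 146980001 to 147040000 of chromosome 2 for Nkx2-2 and from 102060001 to 102120000 of chromosome 5 for Nkx6-1. They ran from 105480001 to 105560000 of chromosome 2 for Pax6, from 117060001 to 117130000 of chromosome 13 for Isl1 and from 147840001 to 147900000 of chromosome 2 for Foxa2. All positions without a named build are 1-based on mm9.

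Chromatin immunoprecipitation (ChIP) with an anti-CtBP2 antibody gave 1 library, and sheared chromatin without precipitation (input) gave another. Both came from MIN6 cells in regular culture, crosslinked with formaldehyde (1%, 10 min). MIN6 is a mouse insulinoma line, derived from beta cells made to express the large T antigen, and it stands for beta cells as a single transformed line. Each group had 1 library and thus no replicates, so each test sets the reads of one library against those of the other and says nothing about conditions. No precipitation with control IgG was analysed here, and neither library measures expression, so the cell type could not be checked against marker genes.

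CtBP2 is a co-repressor that does not read DNA sequence itself and is brought to chromatin by partner proteins, where it gathers histone-modifying enzymes. The 5 genes encode factors that build and keep the endocrine identity of islet cells. Nkx2-2 and Nkx6-1 are homeodomain proteins, Pax6 has a paired domain and a homeodomain, Isl1 is a LIM-homeodomain protein and Foxa2 is a forkhead protein that can open closed chromatin. Nkx2-2 and Nkx6-1 are known to repress genes of other islet cell types in beta cells, while Pax6, Isl1 and Foxa2 act on hormone genes and on Pdx1, the gene of a central beta cell regulator. Among protein-coding genes in RefSeq (GRCm38.p6), Nkx2-2 lies between Nkx2-4 and Pax1, Nkx6-1 between Gpat3 and Gm42134, Pax6 between Rcn1 and Elp4, Isl1 between Pelo and Parp8, and Foxa2 between Pax1 and Sstr4.

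The promoters of the 5 genes are shown because the regions described here lie around these genes and because the genes differ in how many CpG dinucleotides their start regions hold. RefSeq sequences were matched by symbol for 5 of 5 genes, each running from 250 bases before to 50 bases after a transcript start. The start listed first is printed, 5′ to 3′ on the strand of the gene, with CpG in capitals. These sequences are on another build than the reads, no coordinates were converted, and which region covers which promoter was not determined.
Nkx2-2, GRCm38.p6 chr2:147186353-147186652, minus strand: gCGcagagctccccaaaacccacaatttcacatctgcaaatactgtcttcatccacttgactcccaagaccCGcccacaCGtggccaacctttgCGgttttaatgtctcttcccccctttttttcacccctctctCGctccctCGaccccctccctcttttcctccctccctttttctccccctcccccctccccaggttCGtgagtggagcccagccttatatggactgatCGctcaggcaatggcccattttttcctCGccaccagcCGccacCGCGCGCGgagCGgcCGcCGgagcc
Nkx6-1, GRCm38.p6 chr5:101664662-101664961, minus strand: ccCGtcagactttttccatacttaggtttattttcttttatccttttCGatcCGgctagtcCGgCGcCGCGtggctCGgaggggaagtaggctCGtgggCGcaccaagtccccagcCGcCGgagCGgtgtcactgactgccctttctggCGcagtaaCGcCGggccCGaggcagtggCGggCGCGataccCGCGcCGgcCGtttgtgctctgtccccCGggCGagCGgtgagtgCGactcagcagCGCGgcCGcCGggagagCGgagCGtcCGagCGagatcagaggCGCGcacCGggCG
Pax6, GRCm38.p6 chr2:105668646-105668945, plus strand: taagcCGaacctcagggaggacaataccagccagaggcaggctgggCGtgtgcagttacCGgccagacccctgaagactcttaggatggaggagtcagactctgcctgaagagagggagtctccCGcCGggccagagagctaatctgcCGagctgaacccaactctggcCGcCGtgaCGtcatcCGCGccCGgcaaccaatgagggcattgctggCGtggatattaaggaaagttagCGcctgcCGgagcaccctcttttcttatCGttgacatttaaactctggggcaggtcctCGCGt
Isl1, GRCm38.p6 chr13:116309639-116309938, minus strand: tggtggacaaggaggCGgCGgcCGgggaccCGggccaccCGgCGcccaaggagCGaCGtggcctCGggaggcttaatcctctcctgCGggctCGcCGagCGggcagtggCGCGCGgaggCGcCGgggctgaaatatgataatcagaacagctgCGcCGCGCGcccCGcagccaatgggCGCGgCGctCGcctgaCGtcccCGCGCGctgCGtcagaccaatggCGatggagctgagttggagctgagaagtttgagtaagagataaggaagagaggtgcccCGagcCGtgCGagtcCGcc
Foxa2, GRCm38.p6 chr2:148046920-148047219, minus strand: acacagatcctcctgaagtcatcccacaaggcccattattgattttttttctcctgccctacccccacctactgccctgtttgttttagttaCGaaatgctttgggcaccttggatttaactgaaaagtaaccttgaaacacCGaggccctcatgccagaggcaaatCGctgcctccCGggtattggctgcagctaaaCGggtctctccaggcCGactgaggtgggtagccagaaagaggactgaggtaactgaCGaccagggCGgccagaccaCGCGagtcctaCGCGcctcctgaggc

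The Nkx6-1 promoter held 40 CpG, a number reached by 3.91% of the 32851 promoters of the table, and the Isl1 promoter held 37, reached by 5.58%. The Pax6 start shown held 18 CpG (reached by 29.7% of promoters), Nkx2-2 held 17 (31.4%) and the Foxa2 start shown held 12 (39.6%). The median over the table was 7 CpG, so all 5 lay above it. A further Pax6 start held 16 CpG, and further Foxa2 starts held 23 and 13. The E-box CAGGTG, searched on both strands as CAGGTG and CACCTG because the CtBP partners of the ZEB family bind it, was in none of these 8 start regions and in 20.2% of all promoters.

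Enriched bins were several times more frequent in the 5 windows than in the genome. Reads were counted in steps of 200 bp after 1 read per position and strand was kept, and a bin was called enriched where a Poisson test gave an adjusted p of at most 0.01 (Benjamini-Hochberg over 6709847 bins) and the ChIP count was at least 3 times the count expected from the input. Across the genome 0.994% of tested bins passed. That share covers all tested bins and was not matched for genes or promoters, whereas each window was placed at a gene. The windows were also chosen with earlier results of these data known. In the windows 58 of 1082 tested bins passed (5.36%), with 14 of 190 at Nkx2-2 (7.37%), 14 of 221 at Nkx6-1 (6.33%), 13 of 265 at Pax6 (4.91%), 7 of 234 at Isl1 (2.99%) and 10 of 172 at Foxa2 (5.81%). Enriched bins at most 200 bp apart were joined into regions, which gave 5 regions at Nkx2-2, 4 at Nkx6-1, 6 at Pax6, 3 at Isl1 and 6 at Foxa2. Under other settings 17 to 24 of these 24 regions kept an enriched bin. The median over all windows of the same length in the genome was 0 regions, and the 5 windows held more regions than 93.5% (Isl1) to 99.1% (Foxa2) of them. No region crossed the edge of a window, and none lay within 20 kb outside any of the 5 windows, so that the regions formed a separate cluster at each gene.

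**Figure D1:**
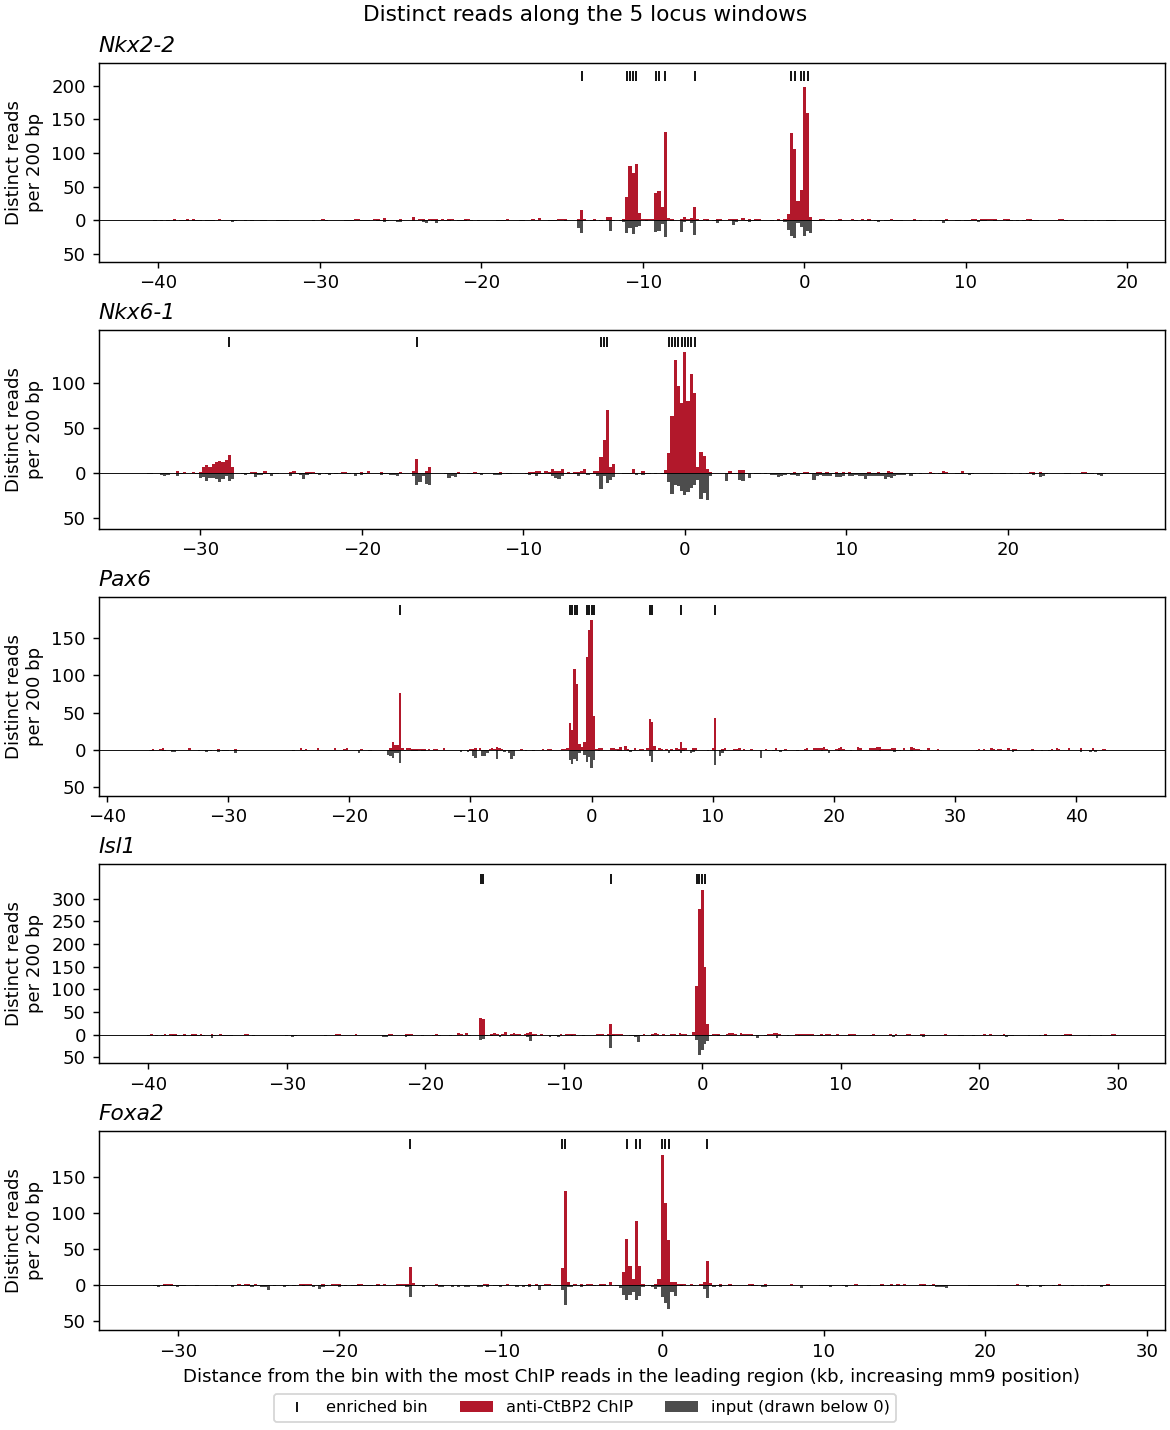
Distinct anti-CtBP2 ChIP reads (red, upward) and input reads (grey, downward) per 200 bp along each of the 5 windows, against the distance in kb from the bin with the most ChIP reads in the leading region. Ticks above mark the 58 enriched bins, which gather in a few short stretches while long parts of each window hold almost no ChIP reads.

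At Nkx2-2 the leading region, that with the most ChIP reads, lay at 147019801 to 147021000 and held 666 ChIP reads against 104 input reads over 1200 bp. Its 6 bins held 129, 106, 29, 45, 198 and 159 ChIP reads against 24, 27, 4, 10, 23 and 16 input reads. The region thus had a pair of maxima with a dip between them, and the dip was present in both libraries. Both edges were sharper in ChIP than in input. The next bin held 4 ChIP and 19 input reads toward higher positions, and 9 and 15 toward lower positions. The summit bin stood at 20.2 times its expected count (95% Poisson interval 17.5 to 23.3). That fold was 12.7 where the scaled input of the same bin, if larger, replaced the expected count. It was 47.3 with scaling outside regions, 63.1 with background-bin scaling and 81.7 with input over 10 kb only.

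Further regions at Nkx2-2, the gene of a factor without which mice form no insulin-producing beta cells, lay 6.8 to 13.8 kb from that summit, all toward lower positions. The region at 147009601 to 147010400 held 268 ChIP and 62 input reads, and that at 147011401 to 147012200 held 234 ChIP and 65 input reads. The second of these regions was uneven, since its bin at 147012001 held 131 of the ChIP reads and 25 of the input reads, 20.1 times the expected count. The remaining regions were single bins at 147006801 with 15 ChIP and 19 input reads and at 147013801 with 19 ChIP and 22 input reads. In those bins ChIP was 1.16 times (95% interval 0.549 to 2.41) and 1.27 times (0.651 to 2.46) the scaled input of the same bin. Their expected counts, taken from input over 1 kb or more, were 4.21 and 3.94, below the scaled input of 12.9 and 14.9 in the bins themselves. Neither passed when the scaled input of the bin itself replaced the expected count.

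At Nkx6-1, whose product keeps beta cells from taking on other islet fates, the leading region was the widest of the 24. It lay at 102092201 to 102094000 and held 796 ChIP reads against 157 input reads over 1800 bp, wider than 99.0% of all regions of the genome. Its 9 bins held 22, 63, 125, 96, 77, 134, 80, 110 and 89 ChIP reads against 10, 23, 14, 15, 20, 24, 21, 17 and 13 input reads. ChIP reads were therefore spread over the region with no single dominant bin, and the summit fold of 10.2 (8.52 to 12.0) was the lowest among the 5 leading regions. Beyond it lay a shoulder where input was as dense and ChIP was not. The bins at 102094201, 102094401 and 102094601 held 23, 19 and 4 ChIP reads against 29, 22 and 30 input reads, and none was enriched.

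Another Nkx6-1 region, 4.8 kb from the leading summit at 102088001 to 102088600, held 124 ChIP and 33 input reads, with 70 and 11 of them in its bin at 102088401. The single enriched bin at 102076601 held 15 ChIP and 13 input reads, a ratio to scaled input of 1.70 (0.754 to 3.88). The single bin at 102065001 held 20 ChIP and 9 input reads and lay next to the last bin of a low stretch that ran from 102063401 to 102065400. Over these 10 bins ChIP counts were 6 to 20 and input counts 3 to 10, 109 and 69 in all, and only 1 bin was enriched. In that stretch each distinct ChIP read had been deposited 1.10 times, against 2.01 times in the run of bins that holds the leading region, which ran from 102092201 to 102094600. Runs were sought as 5 or more neighbouring bins with at least 5 ChIP reads each, a rule chosen after the values were seen.

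At Pax6, which encodes an activator of hormone genes in islet endocrine cells, the leading region lay at 105516201 to 105517000 with 505 ChIP and 65 input reads. Its 4 bins held 125, 161, 174 and 45 ChIP reads against 16, 10, 25 and 14 input reads. Just beside it, toward lower positions, the region at 105514801 to 105515600 held 36, 27, 108 and 89 ChIP reads per bin against 14, 19, 12 and 15 input reads. The regions were called apart because of 3 bins between them with 8, 4 and 10 ChIP reads and 4, 0 and 7 input reads. Input was low there too, so the gap was present in both libraries.

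The other 4 Pax6 regions were smaller and lay on both sides. The single bin at 105500801 held 77 ChIP and 18 input reads, 19.5 times its expected count, and was 15.8 kb from the leading summit. The region at 105521401 to 105521800 held 79 ChIP and 26 input reads, and the single bin at 105526801 held 43 and 20. The sparsest of the 24 regions was the single bin at 105524001 with 11 ChIP and 4 input reads. It was also the region with the lowest input, and the interval of its ratio to scaled input ran from 1.20 to 17.4.

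At Isl1 most ChIP reads were in 1 region. Isl1 encodes a LIM-homeodomain factor needed for islet endocrine cells to mature and for insulin secretion. Its leading region at 117099601 to 117100400 held 853 ChIP reads against 109 input reads over 800 bp, 73.5% of the ChIP reads of the window and 21.2% of the input reads. The 4 bins held 107, 277, 319 and 150 ChIP reads against 12, 44, 33 and 20 input reads. With 1066 ChIP reads per kb it was denser than 99.5% of all regions of the genome, and only 79 enriched bins of the genome held more distinct ChIP reads than its summit.

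That Isl1 summit bin was close to the limit that the counting allows. A 200 bp bin has 400 positions over both strands, and the 319 distinct ChIP reads filled 79.8% of them, against 2.75% to 49.5% in the summit bins of the other 23 regions. All deposited reads of the bin numbered 1450 in ChIP and 42 in input. Counting distinct reads lowered the value of this bin more than that of any other summit in the 5 windows. Over the whole ChIP library each distinct read had been deposited 4.12 times. How much of the drop in this bin came from filled positions, and how much from repeated reads, was not tested. The other Isl1 regions were sparse: the region at 117084001 to 117084400 held 70 ChIP and 22 input reads, and the single bin at 117093401 held 24 ChIP and 29 input reads. The ratio of that single bin to its scaled input was 1.22 (0.679 to 2.167).

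At Foxa2, the gene of a forkhead factor that acts early in the pancreas and upstream of Pdx1, the signal was divided among 6 regions, as many as at Pax6. The leading region at 147871801 to 147872400 held 358 ChIP and 75 input reads. Its 3 bins held 181, 114 and 63 ChIP reads against 17, 25 and 33 input reads, so that ChIP counts were lower from bin to bin toward higher positions while input counts were higher. The bin before it held 8 ChIP and 2 input reads, which made a steep edge. It carried 38.5% of the ChIP reads of the window, the smallest such share among the 5 leading regions.

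The region at 147865601 to 147866000 had the highest summit fold of the 24 over the expected count, 23.9 (19.98 to 28.4), from 130 ChIP and 28 input reads in the bin at 147865801. Over the scaled input of the same bin its ratio was 6.83, below the 15.7 of the leading Foxa2 summit. Between it and the leading region lay the single bin at 147869601 with 64 ChIP and 20 input reads and the region at 147870201 to 147870600 with 116 and 35. Between those, the bins at 147869801 and 147870001 held 27 and 8 ChIP reads and 14 and 10 input reads. The outermost Foxa2 regions were single bins at 147856201 with 25 ChIP and 17 input reads and at 147874601 with 33 and 18.

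**Figure D2:**
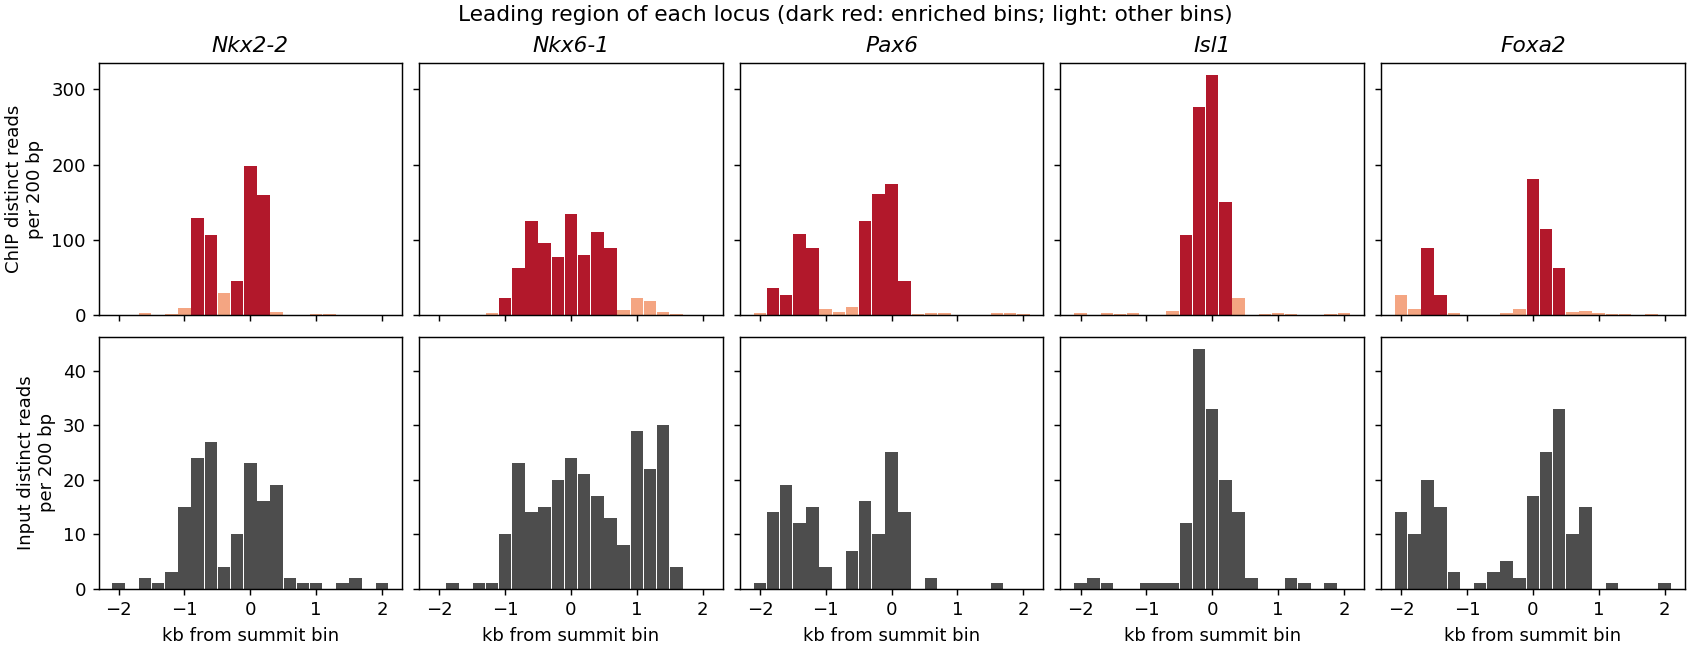
Distinct reads per 200 bp from 2 kb before to 2 kb after the summit bin of the leading region of each locus, with ChIP in the upper row (dark red for enriched bins) and input in the lower row on its own scale. Isl1 has the highest bin with 319 ChIP reads, Nkx6-1 the widest region at 1800 bp, and Nkx2-2 a dip of 29 ChIP reads between maxima of 129 and 198.

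The 24 regions spanned most of the range of region densities in the genome, and the leading regions lay in its upper part. ChIP density ran from 55 reads per kb at the sparsest Pax6 bin to 1066 at Isl1, with a median of 252.5 against 145 over all 27010 regions. Of the 24 regions, 17 were at or above that genome median and 11 were a single bin of 200 bp. Over the genome 36.3% of all regions were narrower than 400 bp, which is a single bin. The leading regions of Isl1, Pax6, Foxa2, Nkx2-2 and Nkx6-1 had 1066, 631, 597, 555 and 442 ChIP reads per kb and were denser than 99.5%, 83.4%, 81.1%, 78.3% and 71.4% of all regions. Together they held 65.8% of the ChIP reads found in the 24 regions. Both strands contributed in each leading region, with 46.6% to 51.3% of ChIP reads on the minus strand. Each leading region was picked for the most ChIP reads among the regions of its window, while the regions of the genome were not picked. That choice alone raises the ranks of the leading regions. The regions were called from these same reads, so their densities are a description.

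**Figure D3:**
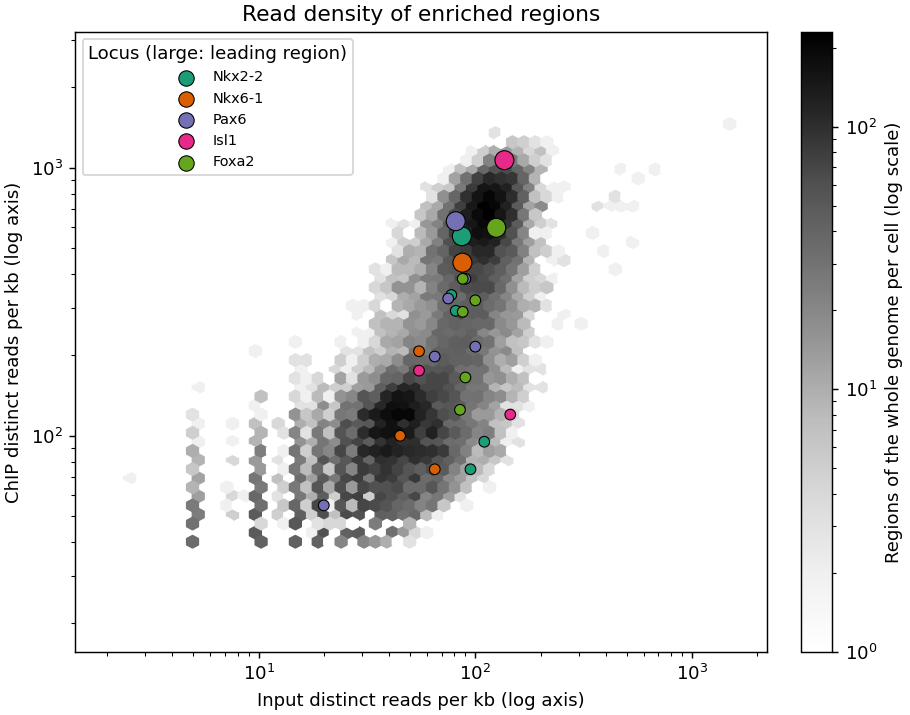
ChIP against input density of enriched regions, in distinct reads per kb on log axes, with all regions of the genome in grey and the 24 regions of the 5 loci in colour (large points are the leading regions). The leading regions lie at 442 to 1066 ChIP reads per kb within the upper cloud, and the sparsest point is the Pax6 bin with 55.

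Whole windows were ranked by the ratio of ChIP to input after scaling by library totals. Nkx2-2 held 1353 ChIP and 578 input reads, a ratio of 3.44 (95% exact interval 3.12 to 3.80). Isl1 held 1160 and 515 (3.31, 2.99 to 3.68), Pax6 1251 and 611 (3.01, 2.73 to 3.32), Foxa2 931 and 471 (2.91, 2.60 to 3.26) and Nkx6-1 1225 and 809 (2.23, 2.04 to 2.44). Of the 4 pairs of neighbours in that order, Foxa2 over Nkx6-1 had a ratio of ratios whose interval excluded 1 (1.31, 1.13 to 1.51). The intervals held 1 for Nkx2-2 over Isl1 (1.04, 0.899 to 1.20), Isl1 over Pax6 (1.10, 0.952 to 1.27) and Pax6 over Foxa2 (1.04, 0.892 to 1.20). Intervals cover counting error only, since reads of amplified libraries are not independent molecules. The order depended on repeated reads: with all deposited reads Isl1 led with 3.97 before Nkx2-2 with 2.77, and Nkx6-1 was again last with 1.53. In windows extended by 20 kb on each side, Pax6 (2.45), Isl1 (2.44) and Nkx2-2 (2.40) were nearly equal.

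Nkx6-1 combined the lowest ratio with a high ChIP density and the highest input density. Its ChIP density of 20.4 reads per kb was the next after the 22.6 of Nkx2-2, while the other 3 windows had 15.5 to 16.6. Its input density was 13.5 reads per kb, against 9.63 at Nkx2-2 and 7.36 to 7.85 at the other loci, and was higher than in 99.6% of windows of that length. Outside its regions the Nkx6-1 window still held 10.4 input reads per kb, against 4.67 to 5.40 in the other windows. In the 1 Mb on each side of the Nkx6-1 window, outside regions, input was 4.12 reads per kb, close to the 3.82 to 5.09 around the other loci. The median window of 60 kb on its chromosome held 282 input reads, against 268 over the genome.

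Against windows of the same length across the genome, all 5 loci ranked high in both libraries. Their ChIP counts were higher than in 96.0% (Foxa2) to 98.7% (Nkx2-2) of windows, and their input counts higher than in 91.0% (Isl1) to 99.6% (Nkx6-1). The ratio of ChIP to input was higher than in 97.3% of windows at Isl1, 97.2% at Nkx2-2, 96.4% at Pax6, 94.8% at Foxa2 and 90.0% at Nkx6-1. For a window of 60 kb the genome medians were 76 ChIP and 268 input reads. The windows of the genome were tiled without regard to genes, so they were not matched for gene content.

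Most ChIP reads of each window fell into a small part of it. Regions covered 2.0% of the Isl1 window, 3.25% at Pax6, 3.33% at Foxa2, 4.67% at Nkx6-1 and 5.33% at Nkx2-2. They held 81.6%, 77.9%, 80.6%, 78.0% and 88.8% of the ChIP reads in the same order of loci, against 31.1%, 31.6%, 42.5%, 26.2% and 47.1% of the input reads. Within regions ChIP was 5.52 times (Foxa2) to 8.71 times (Isl1) the scaled input. In the rest of the windows it was 0.666 times (Nkx6-1) to 0.983 times (Foxa2) the scaled input, on scaling by library totals. Lying below 1 depends on that scaling. In each window 201 to 251 bins held no ChIP read. The parts of the windows outside regions were still denser than their surroundings. They held 2.66 to 4.72 ChIP reads per kb, against 1.15 to 1.29 outside regions in the 1 Mb on each side. Input was also higher there, at 4.67 to 10.4 reads per kb, against 3.82 to 5.09 in those flanks. These parts include bins beside regions, such as the Foxa2 bin at 147869801 with 27 ChIP reads.

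**Figure D4:**
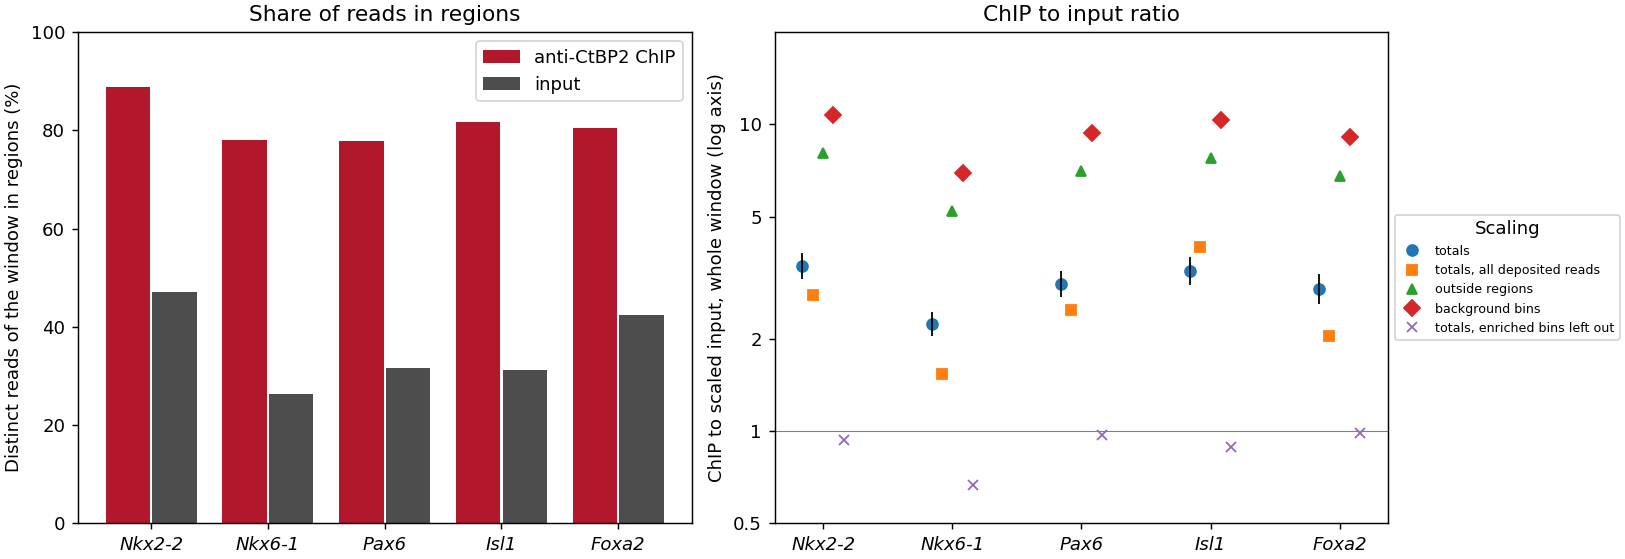
Left, the share of the distinct reads of each window that lay in regions, for ChIP (red) and input (grey); right, the ratio of ChIP to scaled input over the whole window on a log axis under 5 settings, with 95% exact intervals (counting error only) on the values scaled by library totals. In each locus 77.9% or more of the ChIP reads lay in regions, and Nkx6-1 had the lowest ratio under each setting shown.

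Input was itself dense where CtBP2 regions lay, here as over the whole genome. The median input density was 86.9 reads per kb over the 24 regions and 65 over all 27010 regions. Outside regions, bins of the genome with reads held 8.57 input reads per kb. The share of all enriched bins of the genome with dense input was not computed. Of the 58 enriched bins, 53 held at least 10 input reads (91.4%), and the bin with the most input reads was an enriched bin at Nkx2-2, Pax6, Isl1 and Foxa2. At Isl1 that bin held 277 ChIP and 44 input reads and at Foxa2 63 and 33. Dense input did not always come with ChIP reads: of the 78 bins with at least 10 input reads, 14 held 5 ChIP reads or fewer. In the Nkx6-1 window the bin with the most input reads, at 102094601, held 4 ChIP and 30 input reads. The Isl1 bin at 117095401 held 0 ChIP and 15 input reads, and the Pax6 bin at 105510001 held 0 and 13. Across all bins of a window, ChIP and input counts had a Spearman's rho of 0.127 (Isl1, 350 bins) to 0.458 (Nkx6-1, 300 bins), a description of bins that share their libraries. The limits of 10 and 5 reads were chosen after the values were seen.

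Where the scaled input of the same bin, if larger, replaced the expected count, 46 bins of the 5 windows were enriched. The share in the genome was 0.801% of bins, and 17 of the 24 regions kept an enriched bin. The leading region of each locus was among them. The 7 regions without an enriched bin were 147006801 and 147013801 at Nkx2-2, 102076601 at Nkx6-1, 105524001 at Pax6, 117093401 at Isl1, and 147856201 and 147874601 at Foxa2, each a single bin. Other settings gave 34 to 75 enriched bins in the 5 windows. The genome shares beside them were 0.718% with all deposited reads (48 bins in the windows), 1.25% with background-bin scaling (75), 1.22% with scaling outside regions (74) and 1.24% with input over 10 kb only (73). They were 0.841% at an adjusted p of 1e-05 (52), 0.762% at a fold of 5 (46), 1.03% with 5 prime ends not moved (67), 0.993% with the grid moved by 100 bp (56) and 0.624% with high-input bins left out (34). In each setting the share of bins in the genome was thus far below that in the windows. Of the 24 regions, 19 kept an enriched bin with all deposited reads, 21 at a fold of 5 and 18 with 5 prime ends not moved. With high-input bins left out 19 did, and with the grid moved by 100 bp 22 did. The single bins at 147006801 (Nkx2-2) and 102076601 (Nkx6-1) were those lost with the moved grid, and they were lost most often across settings.

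Repeated reads were fewer in the 5 windows than over the whole ChIP library. Each distinct ChIP read had been deposited 3.30 times at Isl1, 2.33 at Pax6, 2.31 at Nkx2-2, 2.04 at Foxa2 and 1.90 at Nkx6-1, against 4.12 times over all nuclear chromosomes. For input the values were 1.12 to 1.19 in the windows, against 1.67. The ChIP library held 34890624 deposited and 8474671 distinct nuclear reads, and the input library 20896067 and 12471942. Over the genome, regions held 60.9% of distinct ChIP reads and 8.74% of input reads.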

How the data were processed

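Aligned reads of both libraries were deposited by the authors as lines with chromosome, start, end and strand. Per the submitters' processing notes, BWA, SAMtools 0.1.19 and bedtools 2.17.0 were used with the build mm9. Settings, the BWA version and the handling of reads with several matches are not given in the sources used here. The deposited score column is 0 throughout and thus holds no mapping quality. The deposited starts and ends are positions in bp, and a name column, 1 on every line and of no stated meaning, was not used. Reads were 33 to 38 bp long.

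From these files, 1 read per position and strand was kept on 21 nuclear chromosomes, and 5 prime ends were moved by 112 bp, 0.5 of the ChIP fragment length of 225 bp found by strand cross-correlation. Counts were taken in 200 bp bins. The expected count was the largest of the genome mean over bins with reads (1.26) and the input over 1, 5 and 10 kb, scaled by library totals (0.679). One-sided Poisson tests were adjusted by the Benjamini-Hochberg procedure. Bins with very dense input were kept, since leaving them out removes dense ChIP sites. Ratio intervals are exact conditional intervals. The script was tested on simulated data with flat or moderately raised input. Those data did not include input as dense as in most enriched bins of the windows. Python 3.11.15, NumPy 2.4.6, SciPy 1.17.1, pandas 2.3.3 and matplotlib 3.10.9 were used.

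All 5 genes and all 24 regions are named, since no locus had more than 6. The members, windows and tests were chosen with earlier results of these data known. A search of the proteins for the CtBP docking motif was planned and not run. Alternatives were other scalings, thresholds, shifts, grids and window extents. Scaling outside regions and input over 10 kb only were added after the values were seen.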

Additional observations from a re-analysis of the deposited data

How the results depend on the processing

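No paired analysis was possible because there was only 1 library on each side. The whole-window ratio of ChIP to input depended on scaling, while its order among loci changed with all deposited reads, with another window extent and without the enriched bins. For Nkx2-2, Nkx6-1, Pax6, Isl1 and Foxa2 in that order it was 10.74, 6.945, 9.391, 10.33 and 9.066 with background-bin scaling and 8.048, 5.206, 7.039, 7.744 and 6.796 with scaling outside regions. With all deposited reads it was 2.765, 1.531, 2.484, 3.967 and 2.033, and with windows extended by 20 kb on each side 2.402, 1.895, 2.448, 2.443 and 2.324. Without the enriched bins, with scaling by library totals, it fell below 1, to 0.9314, 0.6656, 0.9717, 0.883 and 0.9829. Those bins hold most ChIP reads, and lying below 1 depends on the scaling. The factor was 0.679 by totals, 0.291 outside regions and 0.218 by background bins, and a smaller factor gives a higher ratio. No ratio without the enriched bins was computed with the other scalings. With 5 prime ends not moved all 5 ratios stayed within their intervals.

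Counts of enriched bins moved by over 1.5 times in 8 cases. Leaving out high-input bins gave 6 at Nkx2-2, 3 at Isl1 and 5 at Foxa2, and it removed the summit bins of 4 of the 5 leading regions. A fold of at least 5 gave 9 at Nkx2-2. Using the scaled input of the same bin where it exceeded the expected count gave 6 at Foxa2. At Nkx6-1 the count was 23 with background-bin scaling and 22 both with scaling outside regions and with input over 10 kb only. Summit folds of the 5 leading regions were 10.2 to 20.2. They were 8.22 to 15.7 where the scaled input of the same bin, if larger, replaced the expected count. With all deposited reads they were 6.78 to 29.5. They were 23.8 to 47.3 with scaling outside regions, 31.7 to 63.1 with background-bin scaling and 30.6 to 129 with input over 10 kb only. At an adjusted limit of 1e-05, 3 single-bin regions with 11 to 15 ChIP reads no longer passed. An effect of depth was not tested.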
